A study of Rattus norvegicus with 6 samples.

Results

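The Ly6 and uPAR domain family is described here through 9 named genes: Lypd1, Lypd2, Lypd3, Lypd5, Lypd6, Ly6b, Ly6e, Plaur and Cd59. Lypd2 was chosen by its normalized counts in these libraries, which were far higher in rats given streptozotocin (STZ) than in Control rats, and the others were chosen by family name around it. Of the 9 genes, 7 were found as features of their own among the 27321 features of the expression table. Lypd1 occurred only in a feature that merges it with Gpr39, and no feature was named Lypd6.

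Proteins of this family share a small fold in which disulphide bonds hold a core from which finger-like loops extend, the same fold as in snake neurotoxins. Most members are tethered to the outer cell membrane by a glycosylphosphatidylinositol (GPI) anchor and a few are secreted. Known roles include urokinase binding by the uPAR protein that Plaur encodes, protection of cells from the membrane attack complex by Cd59, and tuning of nicotinic acetylcholine receptors by Lynx1 and its relatives. Many family genes lie side by side in clusters, so that paralogs of similar sequence neighbour each other.

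RNA was sequenced from the IM tip, the terminal part of the kidney inner medulla, of male Sprague-Dawley rats aged 3 months. The 3 Control rats received vehicle and the 3 STZ rats received 62.5 mg/kg streptozotocin, a toxin of pancreatic beta cells, into the tail vein, dissolved in citrate buffer. Tissue was collected 15 days after the injection. The question was which transcripts differ between the diabetic and the control IM.

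Each value is a normalized count, the number of reads on a feature divided by a size factor of its library. The libraries held between 3412311 and 5575171 reads on features, and the normalized count that 1 read gives ranged from 0.763 to 1.11. Groups were compared by limma on log2(normalized count + 1), so folds of low features are understated, and p-values were adjusted over 13486 features with a mean of at least 5. Exact permutation of 3 against 3 libraries cannot give a two-sided p below 0.1. The Control libraries were all run in lane 3 and the STZ libraries in lanes 7, 6 and 8, so that lane and group cannot be told apart. The sources say that each group has 3 rats' samples but not whether any library pools animals, and p-values measure the spread between these libraries.

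The IM tip label was checked against marker genes. The summed normalized count of 7 collecting duct markers lay between 32982 and 54917 in Control and between 43216 and 82092 in STZ, and none of the 7 passed the limma threshold of an adjusted p under 0.05. At an unadjusted p under 0.05, which 14.7% of all tested features had, 3 were higher in STZ. edgeR passed none and DESeq2 passed 2, Aqp2 and Krt8, both higher. Markers of segments that lie outside the IM tip were present in both groups. The sum of 4 thick ascending limb markers was 2680 to 3445 in Control and 1598 to 2797 in STZ, with Umod and Egf lower in STZ. The sum of 5 intercalated cell markers was 475 to 775 in Control and 176 to 241 in STZ, with Atp6v1b1, Slc4a1 and Atp6v0d2 lower. By limma 2 of 4 tested thick ascending limb markers and 3 of 4 tested intercalated cell markers passed, against 0.927% of all tested features lower. Among the other cell types, 1 of 4 tested proximal tubule markers passed by limma, Kap, which was lower. Of 5 tested endothelial markers Plvap passed lower and Vwf higher, and of 6 tested interstitial markers 1 passed, Pdgfra, which was higher. Over all tested features 2.1% passed in either direction. None of 4 thin limb markers passed by limma, DESeq2 or edgeR. Bulk RNA does not tell fewer cells of a type from less RNA per cell, and the part of these cell types in the members' values was not tested.

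**Figure D1:**
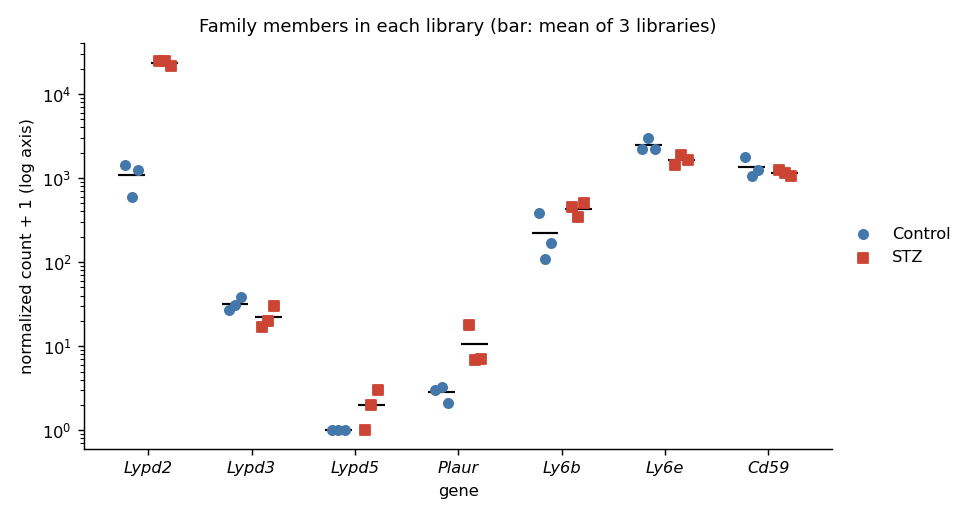
Normalized count plus 1, on a log axis, of the 7 members that are features of their own in each of the 3 Control (circles) and 3 STZ (squares) libraries, with a bar at the group mean. The STZ libraries lie far above the Control libraries for Lypd2, above them for Plaur and below them for Ly6e, and Lypd5 is at or near 0.

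Lypd2 encodes a small protein with a single domain of this fold, predicted to carry a GPI anchor, and lies at chr7:112846292-112848330 of rn4. Its normalized count was 1430, 586 and 1231 in Control replicates 1, 2 and 3. In STZ replicates 1, 2 and 3 it was 24341, 24472 and 21290. Every STZ library stood above every Control library, and the lowest STZ value was many times the highest Control value.

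The mean was 1082 ± 441 (SD, n = 3) in Control and 23368 ± 1801 (SD, n = 3) in STZ, a ratio of 21.6. On the log2 scale the difference was 4.53 ± 0.31 (SE). No test is given, since this difference chose the gene. Among all reads on features, Lypd2 took between 0.0138% and 0.0324% in Control and between 0.523% and 0.553% in STZ. The spread between libraries was larger than counting error in both groups. The coefficient of variation was 40.8% in Control, where counting error alone would give 3.03%, and 7.71% in STZ, where counting error would give 0.645%. Control replicate 2 was the low library.

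Of 7 tested urothelial markers, 2 rose by limma, Upk3a and Upk1b, against 1.17% of all tested features. edgeR and DESeq2 passed the same 2 and no other. By limma without the minimum mean, or without the intensity trend, Upk3a alone passed. In 3 of the 7 every STZ library was above every Control library, against 10.1% of all tested features. The summed normalized count of 7 of the 10 listed markers, those with a feature, was 140, 107 and 177 in Control and 448, 545 and 509 in STZ. Upk3a, a uroplakin of the urothelial plaque, made up most of the STZ sums, with 27.7, 28.2 and 50.1 in Control and 332, 367 and 333 in STZ. Its relative Upk1b had 29.7, 20.6 and 37.8 in Control and 58.5, 85.1 and 67.3 in STZ, whereas Upk1a, at 30.8, 25.9 and 28.9 against 14.9, 33.6 and 50.2, overlapped between the groups. None of the 7 was at 0 in every library. The part of urothelium in the Lypd2 values was not tested.

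The features whose centred log2 profile over the 6 libraries was nearest to that of Lypd2 were D3ZFT6_RAT, Postn, D3ZA92_RAT, Wfdc6b and Pon3. Their root mean square distances were 0.57, 0.60, 0.66, 0.67 and 0.73 on the log2 scale. Pon3, a paraoxonase, read 25.6, 30.5 and 13.4 in Control and 439, 444 and 260 in STZ. D3ZFT6_RAT had no read in any Control library. Postn, a secreted matricellular protein, had between 1 and 3 reads there, so these profiles rest on few counts. D3ZFT6_RAT, D3ZA92_RAT, Postn and Wfdc6b had Control means of 0, 0.342, 2.05 and 3.89. They reached the minimum mean of 5 only through the STZ group. The list follows from the Lypd2 values that chose the gene, so it is a description only.

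Ly6e and Ly6b lie on chromosome 7 as Lypd2 does, and the 3 genes span 465 kb. Ly6e, an interferon-inducible GPI-anchored protein known as a receptor in placental cell fusion, is at chr7:113151827-113155521. Its normalized count was 2223, 2972 and 2224 in Control and 1414, 1887 and 1614 in STZ. All STZ libraries were below all Control libraries, opposite to Lypd2. The means were 2473 ± 433 and 1639 ± 237 (SD, n = 3 each), 1.51 times as high in Control, with a log2 difference of -0.59 (95% confidence interval -1.04 to -0.14). This did not pass the threshold over all features (adjusted p = 0.188 by limma).

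Ly6b, a Ly6 antigen of the kind found on myeloid cells in mouse, is at chr7:113306010-113310996. It read 380, 108 and 166 in Control and 445, 345 and 507 in STZ. Control replicate 1 lay above STZ replicate 2, so the groups overlapped, and the Control libraries varied by 65.9% where counting error would give 6.74%. The mean was 218 ± 144 in Control and 432 ± 81.6 in STZ (SD, n = 3 each), with a log2 difference of 1.17 ± 0.37 (SE) and an adjusted p of 0.154 by limma. Without Control replicate 1 the log2 difference was 1.67 and passed (adjusted p = 0.0153 by limma). With all libraries and a block on replicate number it passed too (adjusted p = 0.0428 by limma). The call depends on Control replicate 1 and on the model.

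Reads on features that join genes are not part of these values. Whether such features hold reads that fit several paralogs or reads that lie between genes is not given in the sources used here. The table holds 9 features that join Ly6b with other Ly6 genes, and together they equalled 22.1% to 105% of the Ly6b value in Control and 38.4% to 55.9% in STZ. With their reads added to Ly6b, the log2 difference was 1.14. For Lypd2 the joined features came to at most 0.260% of its value. Leukocyte markers, given beside Ly6b for its myeloid relatives, summed to 1040, 2452 and 1928 in Control and 1611, 1434 and 2217 in STZ. Of the 12 markers 9 were tested, and none passed by limma or edgeR in either direction. A single one was lower at an unadjusted p under 0.05, which 14.7% of all tested features had. This was the monocyte receptor gene Cd14, which DESeq2 passed. The sums overlapped between the groups, no marker was at 0 in every library, and the part of leukocytes in the Ly6b values was not tested.

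**Figure D2:**
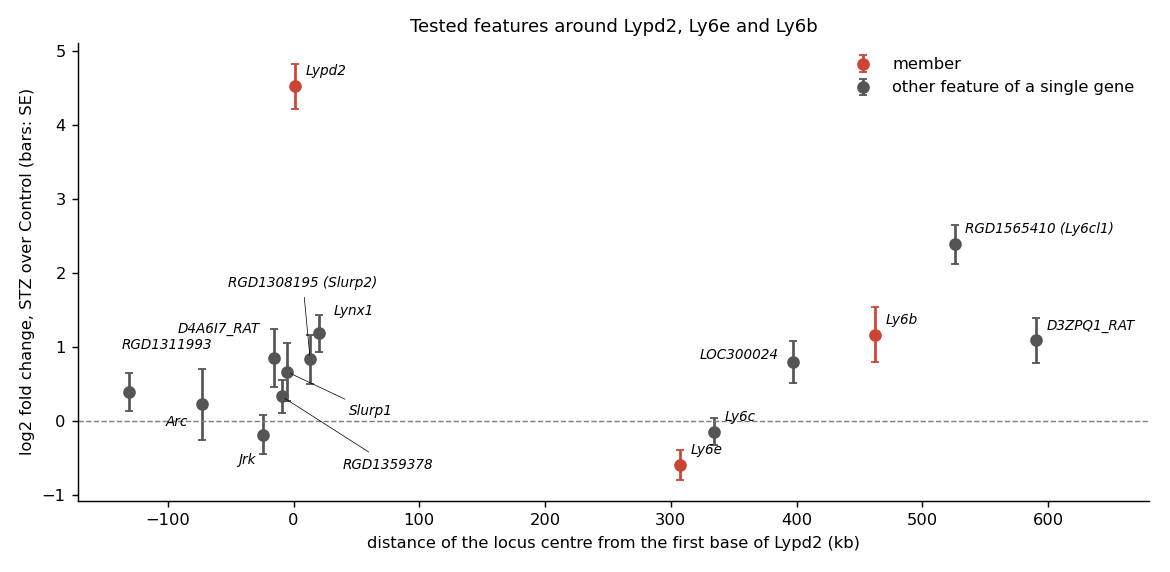
log2 fold change of STZ over Control (bars: SE, limma) for tested features of single genes around Lypd2, Ly6e and Ly6b, against the distance of the locus centre from the first base of Lypd2 in kb. Lypd2 at 4.53 and RGD1565410 at 2.39 stand highest, and Ly6e at -0.59 is the lowest point.

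Neighbours of these members were read within 250 kb. Around Lypd2, 1 of 8 tested features of single genes passed the threshold, Lynx1. Around Ly6b it was 1 of 5, RGD1565410. Over all tested features 2.1% passed, 1.17% higher and 0.927% lower in STZ.

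Lynx1, a GPI-anchored modulator of nicotinic receptors, lies at chr7:112865893-112867723, next to Lypd2 and the Slurp genes. Its normalized count was 524, 288 and 301 in Control and 974, 818 and 676 in STZ, with no overlap. It rose by 1.19 ± 0.25 (SE) on the log2 scale (adjusted p = 0.0386 by limma). The call was lost when any library other than Control replicate 1 was left out, at log2 differences of 1.03 to 1.32 and adjusted p of 0.0589 to 0.184 by limma.

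RGD1565410, which RefSeq lists as Ly6cl1, is a Ly6 paralog at chr7:113370222-113373701. It read 668, 477 and 345 in Control and 2562, 1985 and 3140 in STZ. Every STZ library was well above every Control library. The gene rose by 2.39 ± 0.26 (SE) on the log2 scale, from a mean of 497 ± 163 to 2562 ± 577 (SD, n = 3 each; adjusted p = 0.00139 by limma), and passed with each library left out. A feature that joins it with Ly6b read 45.1, 20.6 and 7.79 in Control and 96.6, 109 and 96.4 in STZ. These genes are neighbouring paralogs, so how the counting assigned reads among them is uncertain.

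The other neighbours named here did not pass by limma. D3ZPQ1_RAT had 14236, 12051 and 6953 in Control and 27539, 18960 and 22114 in STZ (log2 difference 1.09, adjusted p = 0.110 by limma). It passed in 4 of 18 alternatives, among them DESeq2 (adjusted p = 0.00204) and the replicate block (0.0388 by limma). Slurp1, a secreted member of the fold, had 31.8, 11.4 and 12.2 in Control and 28.8, 24.7 and 27.1 in STZ, with Control replicate 1 above all STZ libraries. RGD1308195, listed by RefSeq as Slurp2, had 66.6, 56.4 and 33.4 against 124, 99.9 and 59.2, which also overlapped. Ly6c, next to Ly6e, had 595, 611 and 558 in Control and 543, 603 and 461 in STZ, which overlapped (log2 difference -0.14 ± 0.18, SE). Control replicate 2 held the lowest of the Control values for Lypd2, Ly6b, Lynx1 and Slurp1. For RGD1565410, D3ZPQ1_RAT, RGD1308195 and Ly6c the lowest was in Control replicate 3, and for Ly6e Control replicate 2 held the highest.

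**Figure D3:**
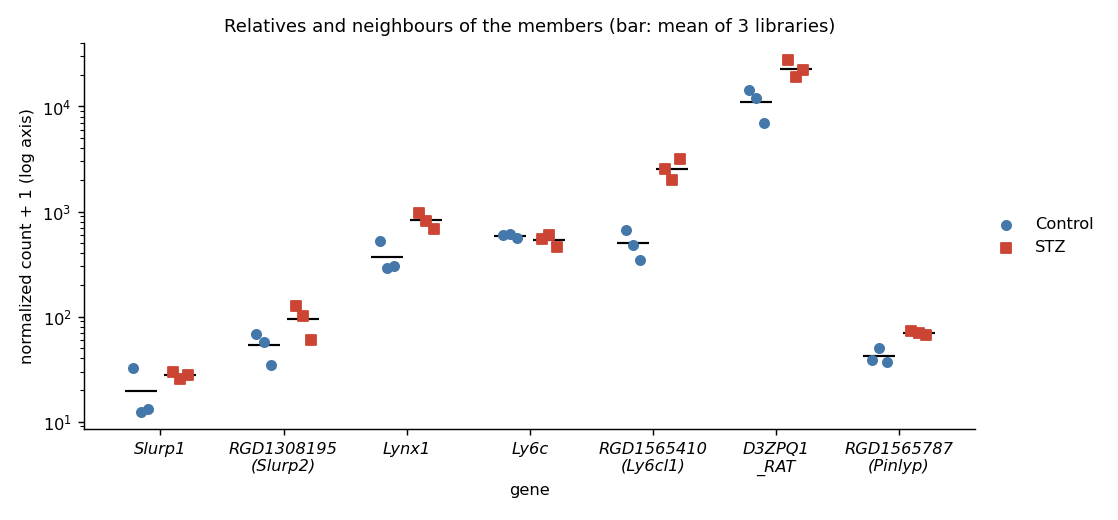
Normalized count plus 1, on a log axis, of 7 relatives and neighbours of the members in the 3 Control (circles) and 3 STZ (squares) libraries, with a bar at the group mean. RGD1565410, Lynx1, D3ZPQ1_RAT and RGD1565787 show no overlap between groups, while Slurp1, RGD1308195 and Ly6c overlap.

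Plaur, Lypd3 and Lypd5 form a second cluster, on chromosome 1, where Lypd5 and Lypd3 bound a span of 331 kb. RefSeq's promoter table of the GRCr8 build held an entry for 6 of the 9 members, among them all members of this cluster and Ly6b, under the symbol Ly6i. No entry was found for Lypd2, Ly6e or Cd59. The 250 bases before the start of Plaur, Lypd3 and Ly6b are shown because these genes come from both clusters and differ in the sign of their STZ difference. Plaur is at chr1:89181113-89181362 (plus strand), Lypd3 at chr1:89354104-89354353 (plus strand) and Ly6b at chr7:108948067-108948316 (minus strand), each on GRCr8 and written 5′ to 3′ along the gene. Capitals mark a match to 1 of the 4 searched motifs on either strand.
Plaur: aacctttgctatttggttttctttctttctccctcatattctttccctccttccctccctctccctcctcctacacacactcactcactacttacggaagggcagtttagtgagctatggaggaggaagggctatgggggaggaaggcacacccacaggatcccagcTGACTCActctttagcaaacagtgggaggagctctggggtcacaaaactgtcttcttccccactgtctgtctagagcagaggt
Lypd3: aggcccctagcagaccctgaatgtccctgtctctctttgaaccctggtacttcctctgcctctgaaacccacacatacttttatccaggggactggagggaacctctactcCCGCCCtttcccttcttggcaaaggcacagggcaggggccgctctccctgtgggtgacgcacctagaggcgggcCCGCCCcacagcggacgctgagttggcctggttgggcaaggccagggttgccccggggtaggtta
Ly6b: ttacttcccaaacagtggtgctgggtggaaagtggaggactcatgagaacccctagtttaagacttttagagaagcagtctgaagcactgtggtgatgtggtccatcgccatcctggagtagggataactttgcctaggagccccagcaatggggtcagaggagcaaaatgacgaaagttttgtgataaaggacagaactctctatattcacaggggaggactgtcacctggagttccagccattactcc

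The motifs were TGANTCA (the AP-1 core, found in 6.34% of 33469 windows of the same length), TATAAA (12.9%), GGGCGG (the GC box, 30.5%) and TTCNNNGAA (a STAT core, 7.67%). The matches shown do not overlap each other. The Plaur window held a TGANTCA match whose first base lies 83 bases before the start. The Lypd3 window held GGGCGG matches at 139 and 65 bases before it. These letters were not found in the Ly6b window. A match describes the letters of the window only.

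Plaur encodes uPAR, the GPI-anchored receptor that holds urokinase at the cell surface, and lies at chr1:79708644-79712881 of rn4. It was near the floor of detection, with 2, 3 and 1 reads in Control and 18, 6 and 6 reads in STZ. The normalized counts were 2.05, 2.29 and 1.11 in Control and 16.7, 5.93 and 6.02 in STZ. All STZ libraries were above all Control libraries, with STZ replicate 1 the highest.

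In sums of reads, 6 in Control against 30 in STZ gave a size-factor-adjusted ratio of 5.16. The 95% interval from counting error alone was 2.11 to 15.2. It pools the reads of each group and leaves out the spread between libraries. The coefficient of variation in STZ was 64.9%, where counting error alone would give 31.6%, and STZ replicate 1 gave 18 of the 30 reads. The mean of the STZ group was 9.56 ± 6.20 (SD, n = 3). The log2 difference was 1.78 ± 0.74 (SE), with an adjusted p of 0.284 by limma. Plaur reached the minimum mean for the test only through the STZ group, so the interval and the limma values are given as a description. Its value exceeded the 95th percentile of 836 olfactory receptor genes, used as background, in a single library.

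The ligand and the rest of the plasminogen system were read from a list of 18 genes, of which 11 were tested. Among them 2 fell, against 0.927% of all tested features lower by limma. None rose by limma, edgeR or DESeq2 or was higher at an unadjusted p under 0.05. The median log2 difference was 0.13, against 0.01 over all tested features, but the list holds a gene tested only through its STZ values. Plat, tissue plasminogen activator, had 11051, 14469 and 9503 in Control and 4539, 4625 and 3861 in STZ. It fell by 1.41 ± 0.23 (SE) on the log2 scale (adjusted p = 0.0125 by limma). The call was lost without Control replicate 2 (adjusted p = 0.0795 by limma) and without STZ replicate 2 (0.0517).

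A serpin that inhibits these activators was lower as well. Serpine2, protease nexin-1, had 193, 326 and 137 in Control and 52.9, 58.4 and 52.2 in STZ, and fell by 1.89 ± 0.29 (SE) on the log2 scale (adjusted p = 0.00858 by limma). Plau, urokinase itself, had 1276, 1103 and 1222 in Control and 869, 1180 and 590 in STZ. STZ replicate 2 lay within the Control range, and the log2 difference of -0.50 ± 0.24 (SE) did not pass (adjusted p = 0.376 by limma).

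**Figure D4:**
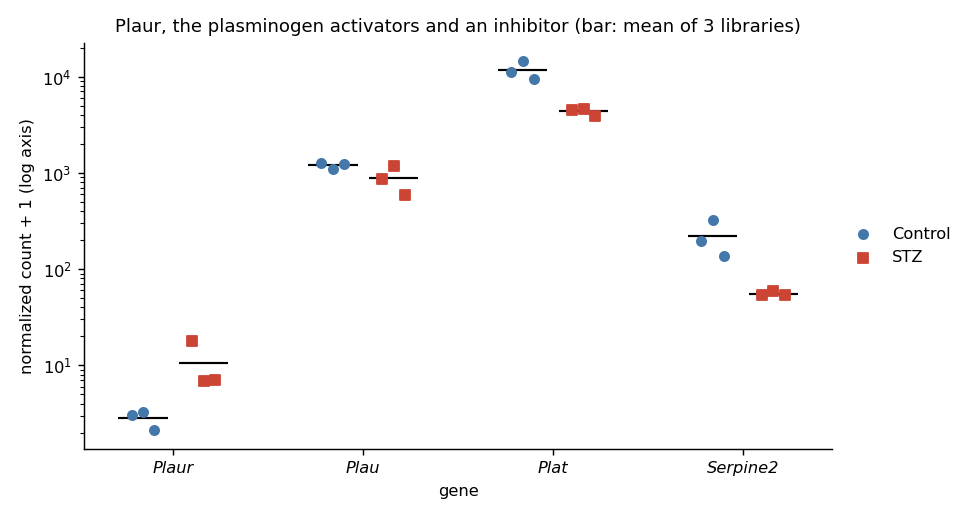
Normalized count plus 1, on a log axis, of Plaur, its ligand Plau, Plat and the inhibitor Serpine2 in the 3 Control (circles) and 3 STZ (squares) libraries, with a bar at the group mean. Plat and Serpine2 are lower in all STZ libraries, Plau overlaps and Plaur, at 1 to 18 reads, is higher.

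Lypd3, also called C4.4A, is a structural relative of uPAR known from stratified epithelia, at chr1:79917951-79922402. It read 25.6, 29.7 and 37.8 in Control and 15.8, 18.8 and 29.1 in STZ. STZ replicate 3 lay inside the Control range. The log2 difference was -0.56 (95% confidence interval -1.26 to 0.15; adjusted p = 0.477 by limma). Of 8 listed partners of Lypd3, such as laminin-332 chains, galectin-3 and the Agr proteins, 5 were tested and none passed by limma or edgeR. At an unadjusted p under 0.05, which 14.7% of all tested features had, 2 were higher. The median log2 difference was -0.02, against 0.01 over all tested features. Lamb3, a laminin-332 chain, came nearest, at 53.3, 67.1 and 74.6 in Control and 192, 119 and 117 in STZ (adjusted p = 0.0508 by limma), and passed by DESeq2.

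Lypd5, an epidermal relative known as haldisin, is at chr1:79591515-79596573 and was not tested. It had 0 reads in every Control library and in STZ replicate 1, and 1 and 2 reads in STZ replicates 2 and 3. No library was above the floor of 3 reads, so no difference was detectable at this depth.

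Of the 13 tested single-gene features within 250 kb of Plaur, 1 passed, the zinc finger gene Zfp94, which fell by 1.09 on the log2 scale (adjusted p = 0.0428 by limma). That call held without Control replicate 3 and was lost without each of the other libraries, at adjusted p up to 0.181 by limma. RGD1565787, listed by RefSeq as Pinlyp, an inhibitor of phospholipase A2 with this fold, lies between Plaur and Lypd3 and had 37.9, 49.6 and 35.6 in Control and 72.4, 69.2 and 65.3 in STZ. The groups did not overlap, and the log2 difference of 0.75 ± 0.23 (SE) did not pass (adjusted p = 0.139 by limma).

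Cd59, the GPI-anchored inhibitor of the last step of complement, lies apart from both clusters at chr3:89422201-89437124. Its normalized count was 1793, 1040 and 1247 in Control and 1226, 1146 and 1059 in STZ. The STZ libraries lay within the Control range. The means were 1360 ± 389 and 1144 ± 83.3 (SD, n = 3 each), with a log2 difference of -0.21 (95% confidence interval -0.70 to 0.27; adjusted p = 0.760 by limma). Without Control replicate 1 the log2 difference was 0.0035.

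Among 15 listed genes of terminal complement and its regulators, 8 were tested and none passed by limma. The median log2 difference was -0.36, against 0.01 over all tested features. At an unadjusted p under 0.05, which 14.7% of all tested features had, 2 were lower. These were Cr1l, the rodent regulator Crry, with a log2 difference of -1.01 (adjusted p = 0.0530 by limma), and Clu, clusterin, which keeps the attack complex soluble, at -0.87 (adjusted p = 0.0590 by limma). Cr1l had 4914, 4404 and 2910 in Control and 2241, 1955 and 1757 in STZ. Clu had 4111, 3918 and 4594 in Control and 2029, 2856 and 2074 in STZ. In both genes every STZ library was below every Control library. edgeR passed Cr1l, and DESeq2 passed both.

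Lypd1, or Lynx2, binds nicotinic receptors, and Lypd6 is known both from nicotinic receptors and from Wnt signalling. The feature that merges Gpr39 with Lypd1, at chr13:38182152-38441498, read 176, 215 and 195 in Control and 228, 274 and 147 in STZ. The groups overlapped (log2 difference 0.10 ± 0.24, SE; adjusted p = 0.922 by limma), and its reads cannot be assigned to Lypd1. Lypd6b, the paralog of Lypd6, was a feature of its own with a mean of 165 ± 40.3 in Control and 135 ± 26.1 in STZ (SD, n = 3 each; adjusted p = 0.702 by limma). Of 16 nicotinic receptor subunits 4 were tested and none passed by limma, edgeR or DESeq2. At an unadjusted p under 0.05, which 14.7% of all tested features had, 1 was lower. The median log2 difference was -0.13, against 0.01 over all tested features. Of the 16, 5 were at or under the floor in every library.

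The enzymes that build the GPI anchor, which most members need to reach the cell surface, were read from 28 listed genes. Of these 20 were tested and none passed by limma, edgeR or DESeq2, with 1 higher and 3 lower at an unadjusted p under 0.05 by limma, against 14.7% of all tested features. In 6 of the 20 every STZ library was below every Control library, against 10.3% of all tested features. In 1 every STZ library was above, against 10.1%. The median log2 difference was -0.22, against 0.01 over all features.

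Other Ly6 and uPAR genes were taken from a list of 31, of which 19 had a feature, 8 were tested and 6 were at or under the floor in every library. The list does not hold the Ly6 paralog RGD1565410, which rose by 2.39 on the log2 scale (adjusted p = 0.00139 by limma). Lynx1 passed, none passed lower or was lower at an unadjusted p under 0.05 by limma, edgeR or DESeq2, and the median log2 difference was 0.71. In 3 of the 8, Lynx1, RGD1565787 and Ly6g6e, all STZ libraries were above all Control libraries. This count holds Ly6g6e, tested only through its STZ values, so it is not read against the 10.1% of all tested features. The median of 0.71 holds Ly6g6e too and is not read against all features. Ly6g6e was low, with a mean of 4.09 in Control and 9.73 in STZ and a log2 difference of 1.27 ± 0.66 (SE; adjusted p = 0.415 by limma), and like Plaur it reached the minimum mean only through the STZ group. Tex101, a germ cell member, had means of 10.7 and 14.6 and did not pass (adjusted p = 0.831 by limma).

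**Figure D5:**
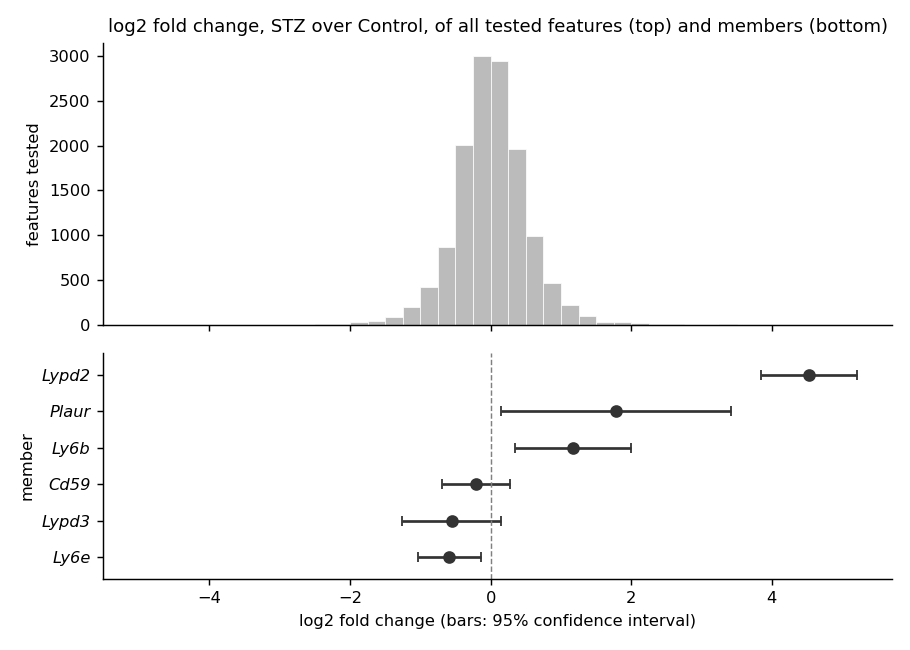
Top, number of tested features per 0.25-wide bin of log2 fold change of STZ over Control. Bottom, log2 fold change of the 6 tested members with 95% confidence intervals from limma. Lypd2 at 4.53 lies far to the right of the bulk of features, and the other members spread on both sides of 0 between -0.59 and 1.78.

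Among the 6 members tested, the log2 difference was above 0 in 3 (Lypd2, Plaur, Ly6b) and below 0 in 3 (Ly6e, Lypd3, Cd59). The median was 0.48. Lypd2, chosen by its difference, and Plaur, tested only through its STZ values, are in both, so neither is read as a result about the family. Of the others, Ly6b was at 1.17, Cd59 at -0.21, Lypd3 at -0.56 and Ly6e at -0.59. Apart from Lypd2, none of the 5 passed by limma, edgeR or DESeq2. Of the 5, 3 had an unadjusted p under 0.05 by limma, Ly6b, Ly6e and Plaur. This count holds Plaur, tested only through its STZ values, so it is not read against the 14.7% of all tested features. Groups did not overlap in Lypd2 and Plaur, with STZ above, and in Ly6e, with STZ below. Of these, Lypd2 was chosen for its separation and Plaur was tested only through its STZ values, so their count is not read against the 20.3% of all tested features that did not overlap (10.1% with STZ above and 10.3% below). Within the chromosome 7 cluster the sign of the difference was not the same for Lypd2 and Ly6e.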

How the data were processed

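RNA of 3 Control and 3 STZ IM tips was prepared with a PCR-based cDNA kit and sequenced. The authors aligned reads to rn4, counted uniquely mapped reads per gene (Ensembl RGSC3.4) and divided by size factors; the submitters' processing notes name STAR 2.3.1t and DESeq 1.16.0. The counting program and its strand setting are not given in the sources used here. The deposited signal values are these normalized counts. Features named with a comma (2720) join genes and those with a plus sign (527) merge overlapping genes. Dividing by each library's step gave whole reads for 100% of values (tolerance 0.01), used by edgeR 4.0.16 and DESeq2 1.42.0 as alternatives, because the values are not counts. Intervals and the floor of 3 reads cover counting error only.

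Groups were compared with limma 3.58.1 (R 4.3.3) with an intensity trend on log2(normalized count + 1), features with a mean of at least 5, and Benjamini-Hochberg adjustment (threshold 0.05). Named are the members, their relatives, neighbours within 250 kb, genes of the related lists that passed with Plau, Plat and Serpine2, cell markers, and the 5 features nearest to Lypd2. Lamb3, Cr1l and Clu were named after their values were seen. The members and lists were chosen with earlier results of these data known. A gene that this rule also names is not reported here. The fits were tested on simulated data. Promoter sequences come from RefSeq (GRCr8), and all other coordinates are rn4.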

Additional observations from a re-analysis of the deposited data

How the results depend on the processing

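Each fit was repeated under 18 alternatives: edgeR, DESeq2, limma without the trend, a block on replicate number, leaving out each library, quantile normalization, scaling to equal totals, minimum means of 1 and 20 or no minimum, pseudocounts of 0.5 and 5 and, chosen after seeing the data, joined features added to members. The related lists were put through these alternatives after seeing the data. The log2 difference of Lypd2 stayed between 4.13 and 4.78. Of 72 values of the 4 tested members other than Lypd2, chosen by this difference, and Plaur, tested only through its STZ values, 69 kept their direction and side of the threshold. Ly6b passed under the replicate block (1.17, adjusted p = 0.0428 by limma) and without Control replicate 1, and Cd59 turned from -0.21 to 0.0035 without Control replicate 1 (-0.39 to 0.0035 with each library left out). The cause was not tested. Plaur has no value at a minimum mean of 20.

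The number of differing features, 283 (158 higher), was 98 (43) with no filter, 522 (267) with quantile normalization, 31 (21) without the trend, 599 (327) with DESeq2, 287 (153) with edgeR, 561 (299) with the replicate block and 88 to 352 (47 to 185) with a library left out. Members passing numbered 1, Lypd2, whose difference chose it, and 2 with the replicate block and 1 to 2 with a library left out, where Ly6b was the other. The related lists held 3 passing features, 6 at a minimum mean of 20, 0 by limma with no filter (5 higher and 11 lower at an unadjusted p under 0.05), 6 with quantile normalization, 5 with equal library totals, 0 by limma without the trend (6 higher and 6 lower), 4 with edgeR, 6 with DESeq2, 6 with the replicate block and 1 to 4 with a library left out. Without the filter or the trend, RGD1565410, Lynx1, Plat and Serpine2 did not pass, at adjusted p of 0.0577 to 0.274 by limma.

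The labels name no link between same-numbered Control and STZ rats beyond the number, so the replicate block is not read as a pairing of animals. Deviations from the group means correlated by 0.395, -0.061 and 0.323 for same-numbered libraries over 9315 features. For different numbers they correlated by -0.472 to 0.22. Whether same-numbered libraries share more than the number was not tested. Depth limits Plaur and Lypd5, which have few reads.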
